A study of Mus musculus with 40 samples.

Results

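MHC class II presentation genes encode the proteins that load peptides from taken-up antigen onto class II molecules and carry them to the cell surface, where CD4+ T cells read them. The 7 genes described here, H2-Aa, H2-Ab1, H2-Eb1, Cd74, Ciita, H2-DMa and H2-DMb1, were chosen by name for their role, with earlier results of these data known. All 7 were found among the 43430 genes of the count table, and all 7 passed the filter on low counts that left 11853 genes for testing. They were measured by RNA-seq in BMDMs, the macrophages that M-CSF grows out of bone marrow, from 5 WT and 5 NDI1 mice. Each mouse gave 1 library without treatment, 1 after 4 h of LPS at 100 ng/ml, 1 with piericidin A at 500 nM, and 1 in which piericidin A preceded LPS by 30 min, so that 8 groups of 5 libraries held 40 libraries in all. LPS is a bacterial outer membrane component that activates macrophages, and piericidin A inhibits mitochondrial complex I.

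The labels give the strain of both genotypes as C57/Bl6, while the methods describe the line with the NDI1 allele as a mixture of the J and N substrains. Both genotypes carried VAV-Cre, which acts in the blood cell lineages, and the NDI1 mice alone also carried the transgene for yeast NADH dehydrogenase NDI1 at the Rosa26 locus behind a stop that Cre removes. NDI1 oxidizes NADH and is not inhibited by piericidin A. The mice were adult littermates of both sexes. The 4 libraries of a mouse allow a change to be read within that mouse. The transgene was not analysed here, so the genotype labels were not checked against it. How long the cells treated with piericidin A alone were exposed is not given in the labels.

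H2-Aa and H2-Ab1 encode the alpha and beta chains of the class II molecule I-A, and H2-Eb1 encodes the beta chain of I-E. C57BL/6 mice do not make the alpha chain of I-E, and the pseudogene H2-Ea-ps had 0 counts in all 40 libraries, where up to 3 counts could not be told apart from none. Cd74 is the invariant chain, which holds the peptide groove closed on the way to the endosome. H2-DMa and H2-DMb1 form H2-DM, which exchanges the remnant of the invariant chain for antigen peptide. Ciita is the coactivator that switches the other genes on, without binding DNA itself, through factors bound at the X and Y boxes of their promoters. Interferon gamma is its classical inducer in macrophages. In BMDMs grown with M-CSF alone, class II levels are known to be low.

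The stretches upstream of 2 members are shown because their promoters carry the Y box, the site of the NF-Y factors named among the partners of Ciita below. Both are 80 bases from 110 to 31 bases before the start site, 5′ to 3′ on the strand of the gene, and come from RefSeq on GRCm38.p6, at chr17:34287854-34287933 on the minus strand for H2-Aa and at chr17:34305757-34305836 on the plus strand for H2-Eb1. Capitals mark the Y box core TGATTGG and the X1 box core TAGNAAC.
H2-Aa: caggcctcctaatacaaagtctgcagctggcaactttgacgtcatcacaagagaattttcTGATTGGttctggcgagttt
H2-Eb1: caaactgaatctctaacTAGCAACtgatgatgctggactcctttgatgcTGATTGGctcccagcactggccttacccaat
RefSeq promoter windows (250 bases before to 50 bases after a start site) were at hand for 4 of the 7 members, in 5 windows. The Y box core was found at position −50 in H2-Aa, −61 in H2-Eb1 and −63 in H2-DMb1, each on the strand of the gene. The X1 box core was found at −93 in H2-Eb1 and at −96 in H2-DMb1. Only the exact letters of the cores were searched, so variants are missed and an unmarked stretch is not shown to lack a box. Both cores of H2-DMb1 lie inside the gene as the count table places it, in the transcribed stretch before its start codon in GENCODE vM21, and for this reason its sequence is not printed. Over both strands, 7.82% of all 32851 promoter windows held TGATTGG, 11.4% held TAGNAAC and 0.938% held both. The shorter CCAAT, of which TGATTGG holds the reverse complement, was found in 37.4% of all windows, and besides the Y boxes it matched at −35 in H2-Eb1 and at −198 on the other strand in 1 of the 2 windows of H2-DMa. Neither window of H2-DMa, which both start upstream of the gene as the count table places it, held the Y or X1 core.

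In the deposited table, on mm10, the genes of the class II region lay on chromosome 17. These were H2-DMa (ENSMUSG00000037649) at 34135182 to 34139101, H2-DMb1 (ENSMUSG00000079547) at 34153072 to 34160230, H2-Ab1 (ENSMUSG00000073421) at 34263209 to 34269418, H2-Aa (ENSMUSG00000036594) at 34282744 to 34287827 and H2-Eb1 (ENSMUSG00000060586) at 34305877 to 34316199. Ciita (ENSMUSG00000022504) lay on chromosome 16 at 10488178 to 10527564, and Cd74 (ENSMUSG00000024610) on chromosome 18 at 60803848 to 60812646. In GENCODE vM21, an exon of Ciita overlaps the gene Dexi on the opposite strand and an exon of Cd74 holds the microRNA gene Mir5107. The strand setting of the counting is not given in the sources used here, so reads of Ciita and Dexi cannot be told apart where they overlap. H2-DMb1 has a near-identical copy, H2-DMb2, and how reads of the pair were divided is uncertain. H2-DMb2 was at 0.0 to 1.61 CPM (counts scaled to the depth of the library with TMM factors) against 10.8 to 36.6 CPM for H2-DMb1.

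The libraries held between 6950748 and 13552070 counts, which left 24 to 171 counts of Ciita, 84 to 399 of H2-DMa, 106 to 403 of H2-DMb1 and at least 521 of each other member per library. All 10 macrophage markers examined were present, with a summed level between 21940 and 40080 CPM. In 2 mice, WT mouse 496 and NDI1 mouse 503, the class II chains and the invariant chain were higher than in the other 4 mice of the genotype in all 4 groups. In every group, the library of these mice was also the highest of the 5 in the summed markers of neutrophils and their precursors, of dendritic cells, of B cells, and of mast cells and basophils. With both agents, 10 dendritic cell markers summed to 114 CPM in mouse 496 and to 27.7 to 43.2 CPM in the other WT mice, and to 74.4 CPM in mouse 503 and 25.9 to 30.8 CPM in the other NDI1 mice. The 6 B cell markers then summed to 16.7 CPM against 0.480 to 3.08 CPM in WT and to 13.6 CPM against 0.776 to 1.36 CPM in NDI1. Without treatment, mouse 496 lay only just above the other WT mice in both sums. The dendritic cell markers summed to 25.2 CPM against 11.17 to 22.1 CPM, and the B cell markers to 2.623 against 1.396 to 2.446 CPM. Its untreated H2-Aa was at 239 CPM against 67.5 to 101.8 CPM. Untreated mouse 503 stood further apart, at 27.51 against 12.97 to 15.58 CPM and at 7.437 against 1.282 to 2.28 CPM. Macrophage genes differed as well, and untreated, 6 of the 10 macrophage markers were higher in both mice than in any of the other 8, with C1qa at 671 and 663 CPM against 88.3 to 264 CPM and Csf1r, the receptor for M-CSF, at 4194 and 4167 CPM against 2662 to 3423 CPM. Many of the tests are given with and without these mice, and the part of these markers was not tested. In bulk RNA, more cells of one type and more RNA per cell cannot be told apart.

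Untreated macrophages of both genotypes expressed the class II chains and the invariant chain well above the H2-DM genes and Ciita. Per kilobase of gene length, as the count table gives it, the mean level in untreated WT BMDMs was 91.7 CPM per kilobase for H2-Eb1, 83.1 for Cd74, 56.8 for H2-Ab1 and 33.3 for H2-Aa. The order among these genes depends on that length, which was 1184 bases for H2-Eb1 and 3973 for Cd74. It may differ from the length of the transcripts expressed. In CPM alone, the means were 330 for Cd74, 133.7 for H2-Ab1, 108.7 for H2-Aa and 108.6 for H2-Eb1. H2-DMa at 7.54, H2-DMb1 at 6.91 and Ciita at 1.22 CPM per kilobase were lower, and the order of the 7 means in untreated NDI1 BMDMs was the same, from 82.7 for H2-Eb1 to 1.21 for Ciita. These means include mice 496 and 503. Leaving out mouse 496 lowered the WT mean of H2-Eb1 from 108.6 to 74.0 CPM. Leaving out mouse 503 lowered the NDI1 mean from 97.9 to 63.7 CPM. Among neighbours in this order, the ranges over the 5 WT mice overlapped for H2-Eb1 (52.1 to 208) and Cd74 (51.9 to 169), for Cd74 and H2-Ab1 (32.7 to 121), for H2-Ab1 and H2-Aa (20.7 to 73.0), and for H2-DMa (5.36 to 10.3) and H2-DMb1 (5.17 to 8.38). The range of H2-Aa lay wholly above that of H2-DMa, and that of H2-DMb1 wholly above that of Ciita (0.555 to 2.03).

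Untreated, H2-Aa was at 67.5, 101.8, 67.9, 239 and 67.6 CPM in WT mice 449, 452, 453, 496 and 520. In NDI1 mice 447, 460, 461, 503 and 521 it was at 70.0, 76.2, 45.9, 237 and 77.3 CPM. The levels of the genotypes overlapped, and mice 496 and 503 were highest. With LPS, H2-Aa was at 107, 134, 86.5, 344 and 97.5 CPM in the WT mice in the same order, and at 93.1, 94.8, 79.8, 294 and 103 CPM in the NDI1 mice. Every mouse was higher with LPS than untreated. With piericidin A alone, H2-Aa was at 79.1, 122, 72.4, 453 and 88.2 CPM in WT and at 86.0, 69.5, 46.9, 237 and 75.2 CPM in NDI1 BMDMs. With LPS and piericidin A it reached 196, 179, 148, 653 and 204 CPM in WT and 93.3, 101.3, 86.6, 337 and 102 CPM in NDI1 BMDMs. Outside these 2 mice, each WT mouse then lay above each NDI1 mouse.

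**Figure D1:**
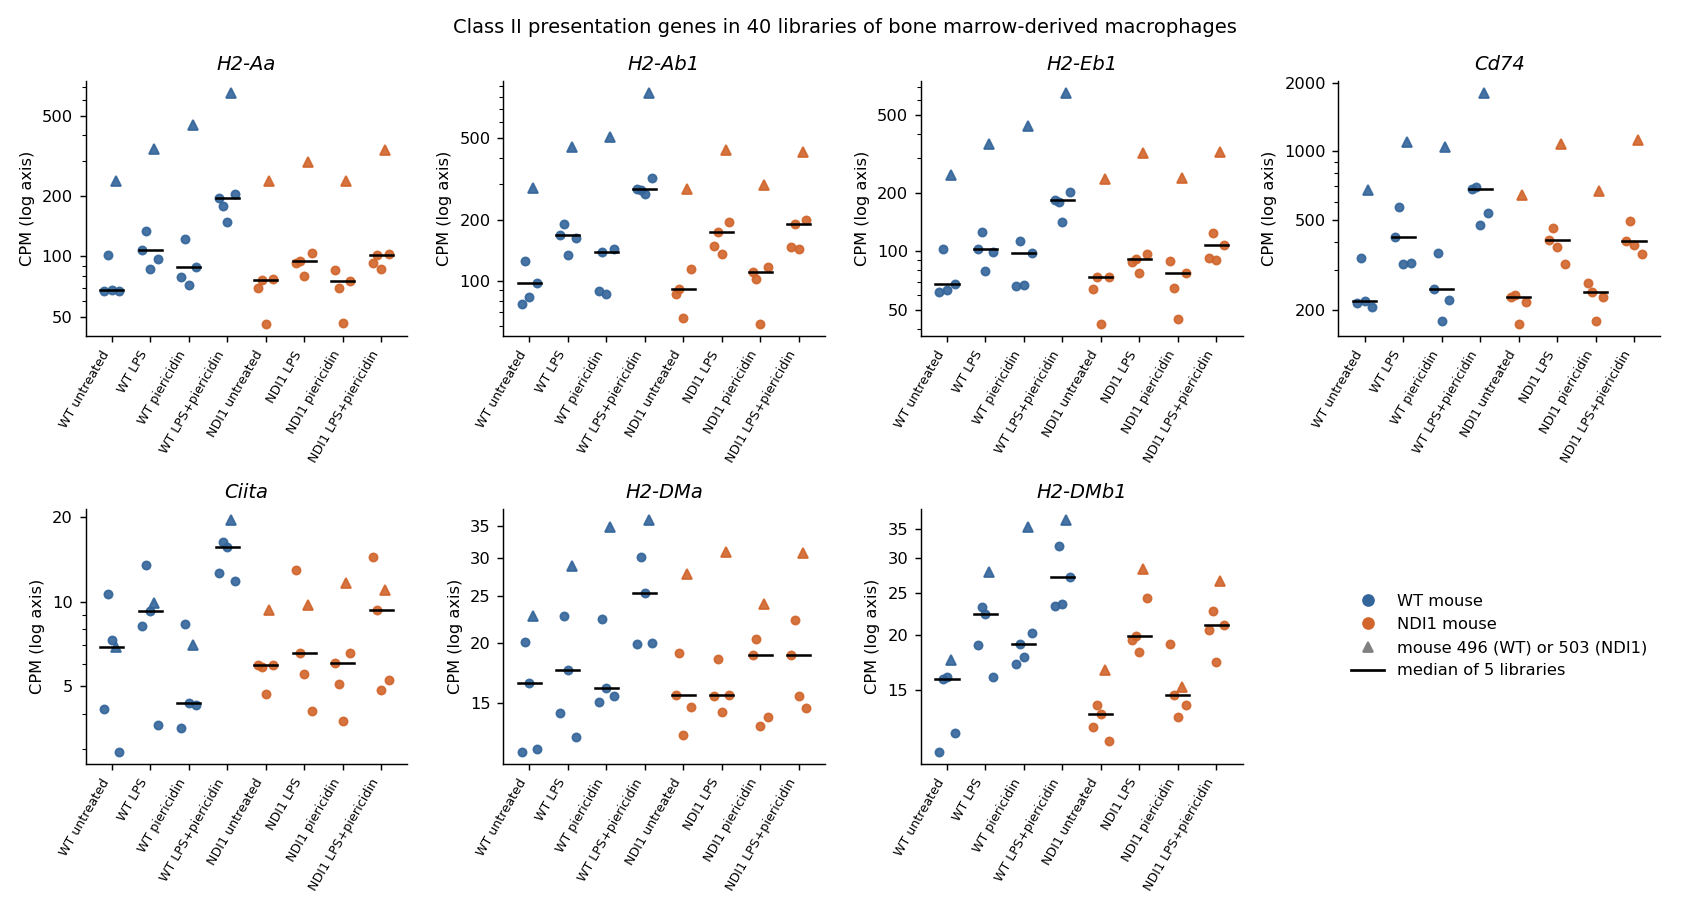
CPM on a log axis (vertical) of each of the 7 genes in the 8 groups (horizontal), 1 point per library, with WT mice in blue, NDI1 mice in orange, mice 496 and 503 as triangles and the median of the 5 libraries as a bar. The WT group with LPS and piericidin A has the highest median in H2-Aa, at 196 CPM, and the triangles lie above the circles in H2-Aa, H2-Ab1, H2-Eb1 and Cd74 in every group.

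Ciita was measured at much lower levels. In WT BMDMs it was at 4.16, 10.6, 7.31, 6.92 and 2.92 CPM untreated (mice 449, 452, 453, 496 and 520), at 8.17, 13.5, 9.26, 9.88 and 3.63 CPM with LPS, and at 3.56, 8.36, 4.35, 7.003 and 4.29 CPM with piericidin A. With LPS and piericidin A, WT Ciita was at 12.6, 16.2, 15.7, 19.5 and 11.8 CPM. Each WT mouse had its highest Ciita level with both agents. In NDI1 BMDMs, Ciita was at 5.96, 5.84, 4.71, 9.32 and 5.94 CPM untreated (mice 447, 460, 461, 503 and 521), at 12.95, 6.55, 5.54, 9.77 and 4.10 CPM with LPS, and at 6.05, 5.10, 3.77, 11.6 and 6.55 CPM with piericidin A. With both agents it was at 14.4, 9.37, 4.84, 11.1 and 5.28 CPM, so that 4 of the 5 NDI1 libraries lay below the lowest WT library, and that of mouse 447 lay within the WT range.

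LPS raised the class II chains, the invariant chain and H2-DMb1 in macrophages of both genotypes, by 1.36- to 1.80-fold in the model with the mouse as a block. In that model all 7 genes rose in WT BMDMs, where 36.4% of all tested genes were called higher at an adjusted p under 0.05. The log2 fold changes in WT were 0.49 ± 0.11 (SE, n = 5) for H2-Aa, 0.76 ± 0.12 for H2-Ab1, 0.48 ± 0.12 for H2-Eb1, 0.72 ± 0.10 for Cd74, 0.50 ± 0.21 for Ciita, 0.20 ± 0.09 for H2-DMa and 0.58 ± 0.12 for H2-DMb1. The adjusted p-values from edgeR's quasi-likelihood test ran from 1.41e-07 for Cd74 to 0.0442 for H2-DMa. In NDI1 BMDMs 5 of 7 rose, against 36.4% of all tested genes there too, with Cd74 at 0.85 ± 0.10 and H2-Ab1 at 0.83 ± 0.12 on the log2 scale. Ciita, at 0.25 ± 0.21 (adjusted p = 0.282, edgeR), and H2-DMa, at 0.07 ± 0.09 (adjusted p = 0.47, edgeR), did not pass the test in NDI1 BMDMs. The WT call of H2-DMa, at the edge of the threshold, was lost when 1 mouse was left out in 7 of 10 cases, with adjusted p-values from 0.0505 to 0.12, and that of Ciita without WT mouse 449 (adjusted p = 0.134) or 496 (adjusted p = 0.0612).

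Within mice, H2-Aa, H2-Ab1, H2-Eb1, Cd74 and H2-DMb1 were higher with LPS in 5 of 5 WT and 5 of 5 NDI1 mice. Ciita and H2-DMa were higher in 5 of 5 WT mice and in 4 and 3 of 5 NDI1 mice. A change upward in all 5 mice was seen in 36.1% of all tested genes in WT and in 35.5% in NDI1 BMDMs, so these counts stand against a high background. The median log2 change of the 7 genes was 0.50 in WT and 0.48 in NDI1 BMDMs, beside −0.01 for all tested genes in each. Without the block, in which the differences between mice enter the error, 1 of 7 genes was called in each genotype, against 31.5% of all tested genes called higher in either genotype. That gene was H2-DMb1, at 0.58 ± 0.18 in WT (adjusted p = 0.00493, edgeR) and 0.71 ± 0.18 in NDI1 BMDMs (adjusted p = 0.000865, edgeR). Without mice 496 and 503 and without the block, H2-Aa, H2-Ab1, H2-Eb1, Cd74 and H2-DMb1 were called in both genotypes, and Ciita and H2-DMa in neither. With the block and without these mice, Ciita (0.51 ± 0.24, adjusted p = 0.0671) and H2-DMa (0.17 ± 0.09, adjusted p = 0.108) also lost their calls in WT by edgeR. Markers of some other cells were higher with LPS as well. The summed level of 10 dendritic cell markers was higher by 1.16 ± 0.34 (SD, n = 5) in WT and 1.00 ± 0.27 in NDI1 mice on the log2 scale, and that of 7 markers of neutrophils and their precursors by 0.86 ± 0.34 and 0.75 ± 0.53. The median sum of 6 T and NK cell markers was 0.238 CPM untreated and 10.6 CPM with LPS in WT, and 0.325 and 8.78 CPM in NDI1 BMDMs. Lck, a kinase of T cells and the only tested gene among them, was called higher with LPS in both genotypes and both models and reached 14.1 CPM. The sum of 6 B cell markers changed in both directions, by 0.08 ± 1.04 in WT (higher in 3 of 5 mice) and −0.42 ± 0.91 in NDI1 (higher in 1 of 5). The part of these markers in the LPS effect was not tested.

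The LPS effect did not differ measurably between the genotypes in any of the 7 genes. By edgeR with the block, 0 of 7 genes and 0.0% of all tested genes were called for this difference, and without the block also 0 of 7 and 0.0%. At an unadjusted p under 0.05 there were 0 members in either model, against 161 of all tested genes with the block and 63 without it. The 95% intervals of the difference between NDI1 and WT, on the log2 scale with the block, were −0.35 to 0.26 for H2-Aa, −0.15 to 0.41 for Cd74 and −0.82 to 0.33 for Ciita. The interval of Ciita was the widest, and a difference of the size of the LPS effect itself lies within it.

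Piericidin A given before LPS raised the class II genes further in WT macrophages, in 5 of 5 mice for each of the 7 genes. H2-Aa, H2-Ab1, H2-Eb1 and Ciita were 1.76- to 1.78-fold higher than with LPS alone in the model with the mouse as a block, Cd74 was 1.52-fold, H2-DMa 1.38-fold and H2-DMb1 1.31-fold higher. All 7 rose in that model, where 15.6% of all tested genes were called higher. In NDI1 macrophages the same treatment gave changes of 0.982- to 1.15-fold and 0 of 7 calls, where 0.0% of all tested genes were called.

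The log2 changes within single WT mice (449, 452, 453, 496 and 520) were 0.87, 0.42, 0.77, 0.92 and 1.06 for H2-Aa. In the NDI1 mice (447, 460, 461, 503 and 521) they were 0.00, 0.10, 0.12, 0.19 and −0.01. The genotypes did not overlap. For Cd74 the log2 changes were 0.70, 0.30, 0.57, 0.72 and 0.73 in WT and −0.02, 0.10, 0.03, 0.05 and 0.15 in NDI1 mice, again without overlap. For Ciita they were 0.61, 0.27, 0.75, 0.97 and 1.65 in WT and 0.15, 0.50, −0.19, 0.17 and 0.35 in NDI1 mice. WT mouse 452, the lowest WT mouse in H2-Aa, H2-Ab1, H2-Eb1, Cd74 and Ciita, fell within the NDI1 range of Ciita. A change upward in all 5 WT mice was seen in 16.1% of all tested genes and in all 5 NDI1 mice in 4.39%. Among the members this held for H2-Eb1 alone in NDI1 mice, with log2 changes from 0.03 to 0.44.

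**Figure D2:**
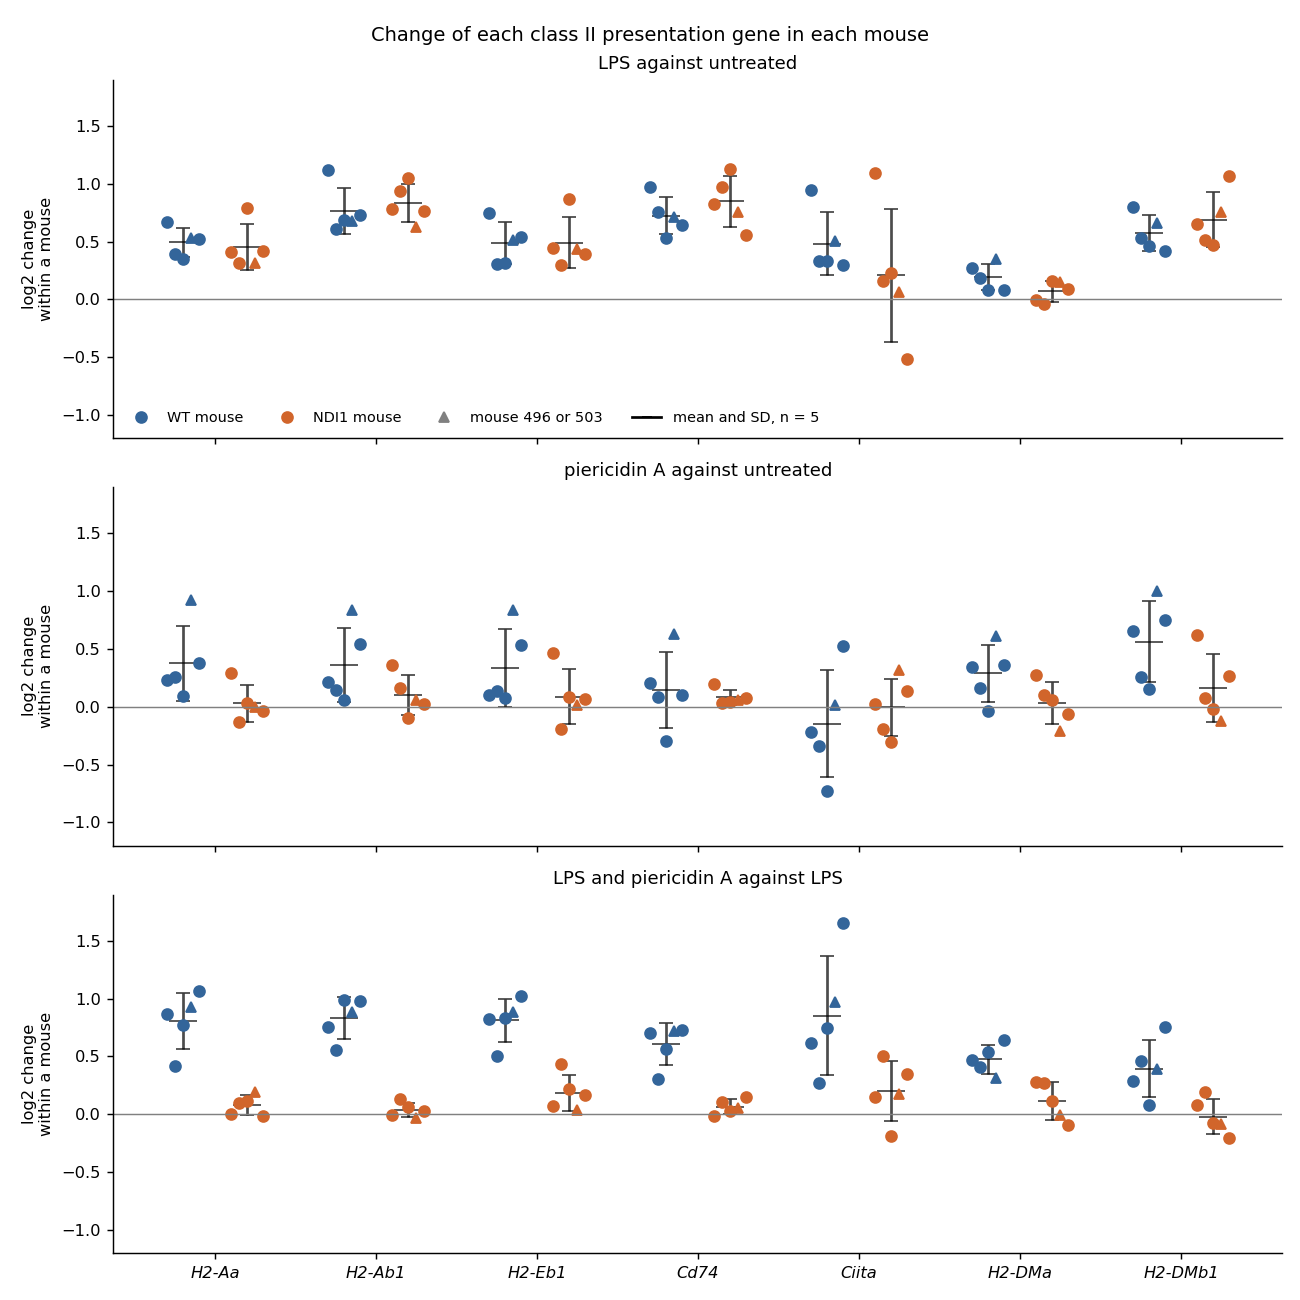
Log2 change of CPM within each mouse (vertical) for the 7 genes (horizontal), for LPS against untreated (top), piericidin A against untreated (middle) and both agents against LPS (bottom), with WT mice in blue, NDI1 mice in orange, mice 496 and 503 as triangles, and the mean with the SD over 5 mice as bars. In the bottom panel the WT points of H2-Aa, from 0.42 to 1.06, lie above the NDI1 points, from −0.01 to 0.19.

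The fitted log2 fold changes of piericidin A under LPS in WT with the block were 0.82 ± 0.11 (SE, n = 5) for H2-Aa, 0.83 ± 0.11 for H2-Ab1, 0.82 ± 0.12 for H2-Eb1, 0.61 ± 0.10 for Cd74, 0.82 ± 0.20 for Ciita, 0.47 ± 0.09 for H2-DMa and 0.39 ± 0.12 for H2-DMb1. The adjusted p-values from edgeR were 1.41e-06, 2.08e-06, 5.95e-06, 2.82e-05, 0.00234, 0.000157 and 0.0104 in that order. The median of the 7 was 0.82, beside −0.02 for all tested genes. Without the block the sizes were alike (0.84 ± 0.56 for H2-Aa and 0.76 ± 0.34 for Ciita). There 0 of 7 genes were called by edgeR, while 16.7% of all tested genes were called in either direction. An unadjusted p under 0.05 was seen in 2 of the 7 and in 3682 of the 11853 tested genes, so this count is near the background. Without mice 496 and 503 and without the block, H2-Aa (0.77 ± 0.19), H2-Ab1 (0.81 ± 0.20) and H2-Eb1 (0.79 ± 0.21) were called by edgeR, and with the block all 7 were called without them. Leaving out WT mouse 520 ended the call of H2-DMb1 with the block (0.31 ± 0.13, adjusted p = 0.0827, edgeR).

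In NDI1 BMDMs the fitted log2 changes under LPS with the block lay between −0.03 for H2-DMb1 and 0.20 for Ciita, and 0 of 7 were called with or without the block, as were 0.0% of all tested genes in each model. At an unadjusted p under 0.05 there were 0 members, against 334 of all tested genes with the block and 127 without it. The 95% interval of the change was −0.13 to 0.30 for H2-Aa, −0.13 to 0.26 for Cd74 and −0.21 to 0.61 for Ciita. All 3 intervals end below the fitted change in WT.

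The difference of this piericidin A effect between the genotypes was itself tested. By edgeR with the block, NDI1 minus WT was −0.74 ± 0.16 on the log2 scale for H2-Aa (adjusted p = 0.00313), −0.79 ± 0.16 for H2-Ab1 (adjusted p = 0.00238), −0.63 ± 0.17 for H2-Eb1 (adjusted p = 0.0183) and −0.54 ± 0.14 for Cd74 (adjusted p = 0.0145). These 4 of 7 genes were called lower, against 4.81% of all tested genes. Ciita (adjusted p = 0.181), H2-DMa (adjusted p = 0.0686) and H2-DMb1 (adjusted p = 0.105) were not called by edgeR. All 7 had an unadjusted p under 0.05, as did 3014 of the 11853 tested genes. Without the block 0 of 7 genes were called, against 0.979% of all tested genes in either direction. At an unadjusted p under 0.05 there were 0 members, against 1656 of all tested genes. With the block, H2-Eb1 (adjusted p = 0.0711) and Cd74 (adjusted p = 0.0589) lost their calls by edgeR without WT mouse 520, and the same 2 genes (adjusted p = 0.108 and 0.0672) lost them without mice 496 and 503. H2-Eb1 also lost its call without NDI1 mouse 503 alone (adjusted p = 0.06).

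The changes within mice gave the same comparison without a model. The WT changes lay above the NDI1 changes without overlap in H2-Aa, H2-Ab1, H2-Eb1, Cd74 and H2-DMa, and this order was seen in 4.13% of all tested genes. For these 5 genes the two-sided exact permutation test gave p = 0.00794, the smallest value that 5 against 5 mice can give, which 9.73% of all tested genes reached in one or the other direction. For H2-DMb1 the exact permutation p was 0.0159 and for Ciita 0.0238, with overlapping mice in both. Adjusted over all tested genes, these exact permutation p-values were 0.0816 for the 5 genes, 0.109 for H2-DMb1 and 0.135 for Ciita, so none passed the threshold of 0.05 in that form.

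Markers of other cells moved along with this result. The summed level of 7 neutrophil and precursor markers was higher with piericidin A under LPS in 5 of 5 WT mice, by 1.06 ± 0.32 on the log2 scale (SD, n = 5), and by 0.23 ± 0.26 in NDI1 mice (exact permutation p = 0.00794 for the difference). In WT without mouse 496 the sum was 45.2 to 117 CPM with LPS and 94.0 to 167 CPM with both agents. The sum of 10 dendritic cell markers changed by 0.36 ± 0.24 in WT and 0.07 ± 0.22 in NDI1 mice (exact permutation p = 0.0714), and lay between 24.9 and 34.5 CPM with LPS and between 27.7 and 43.2 CPM with both agents in WT mice other than mouse 496, in which it was at 76.3 and 114 CPM. The sum of 6 B cell markers changed in both directions among WT mice, from −1.35 to 1.18, and that of 10 macrophage markers by −0.13 ± 0.15. The sum of 6 T and NK cell markers had a median of 10.6 CPM with LPS and 10.2 CPM with both agents in WT and of 8.78 and 10.8 CPM in NDI1 BMDMs. Of these 6, Lck alone passed the filter, and it was not called for piericidin A under LPS, while Ncr1 was at 0 in all 40 libraries and Cd3d in 34. The part of these markers in the rise of the class II genes was not tested.

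**Figure D3:**
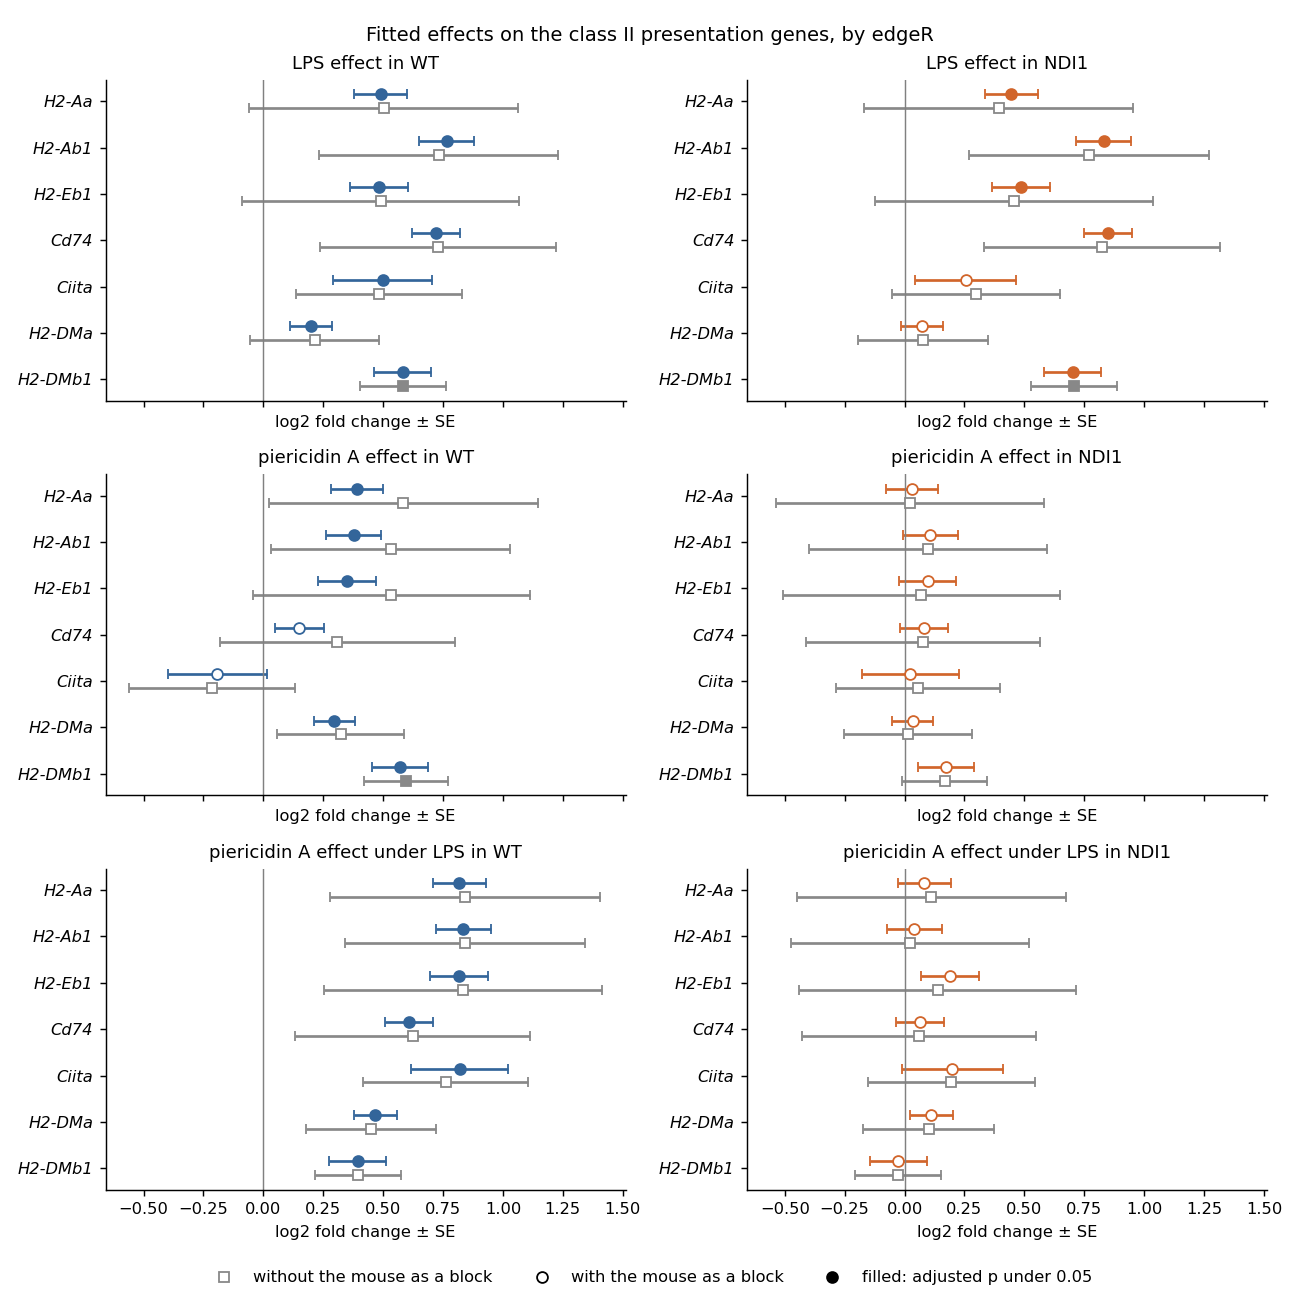
Fitted log2 fold changes with SE (horizontal) of the 7 genes (vertical) for LPS, piericidin A and piericidin A under LPS in WT (left) and NDI1 (right), from edgeR without (grey squares) and with the mouse as a block (coloured circles), filled where the adjusted p was under 0.05. The SE of H2-Aa for piericidin A under LPS in WT is 0.56 without and 0.11 with the block, around nearly the same change.

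In the model with the mouse as a block, piericidin A alone, without LPS, raised 5 of the 7 class II genes in WT macrophages and 0 in NDI1 macrophages. In NDI1 BMDMs 0.0% of all tested genes were called. For the difference between the genotypes itself 0 of 7 were called, against 8.96% of all tested genes. With the block, H2-DMb1 rose 1.48-fold in WT BMDMs, H2-Aa 1.31-fold, H2-Ab1 1.30-fold, H2-Eb1 1.27-fold and H2-DMa 1.23-fold, while Cd74 (1.11-fold) and Ciita (0.876-fold) did not pass the test. In this model 17.2% of all tested genes were called higher. The log2 changes of H2-Aa in the WT mice were 0.23, 0.26, 0.09, 0.93 and 0.38 in the order used above, so that mouse 496 changed most. Without mouse 496, with the block, 1 of 7 genes was called, which was H2-DMb1 as it was without both mice 496 and 503 (0.45 ± 0.13, adjusted p = 0.0114, edgeR). Without WT mouse 520, 3 genes were called. The neutrophil and precursor markers changed by 0.72 ± 0.60 (SD, n = 5) in WT mice, most in mouse 496 (1.74). The dendritic cell markers changed by 0.38 ± 0.53, with 1.20 in mouse 496 and −0.15 to 0.43 in the other WT mice, and the B cell markers by 0.02 ± 1.16, with 1.85 in mouse 496 and −1.09 to 0.39 in the others. Mouse 496 thus had the largest change in each of these 3 sums as well as in H2-Aa, and the part of these markers was not tested.

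Without the block H2-DMb1 was the single gene called higher in WT BMDMs with piericidin A, at 0.60 ± 0.18 (adjusted p = 0.0196, edgeR), against 7.79% of all tested genes. This call was lost without WT mouse 496 or without WT mouse 520. H2-Aa, H2-Ab1, H2-Eb1 and H2-DMb1 were higher in 5 of 5 WT mice, as were 21.5% of all tested genes. Ciita went up in 2 WT mice and down in 3, with log2 changes from −0.72 to 0.53. In NDI1 BMDMs 0 of 7 genes were called with or without the block, as were 0.0% of all tested genes, with fitted log2 changes from 0.02 to 0.17 with the block. For the difference between the genotypes 0 of 7 genes were called by edgeR, against 8.96% of all tested genes with the block and 1.27% without it. An unadjusted p under 0.05 was seen in 3 members with the block and 0 without it, beside 2838 and 1331 of the 11853 tested genes. The exact permutation test over the changes within mice gave p = 0.0397 for H2-Aa (0.157 when adjusted over all tested genes).

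Whether piericidin A changed the response to LPS was tested as the difference between its effects with and without LPS. In WT BMDMs with the block, Ciita (1.01 ± 0.29 on the log2 scale, adjusted p = 0.0145), Cd74 (0.46 ± 0.14, adjusted p = 0.024) and H2-Ab1 (0.46 ± 0.16, adjusted p = 0.0478) were called higher by edgeR, 3 of 7 against 7.95% of all tested genes. H2-Aa (adjusted p = 0.0517, edgeR) and H2-Eb1 (adjusted p = 0.0528, edgeR) lay just past the threshold of 0.05. H2-DMb1 did not share this pattern, with a difference of −0.18 ± 0.17. Without the block 0 of 7 genes were called, against 4.75% of all tested genes in either direction. There 0 members had an unadjusted p under 0.05, against 2173 of all tested genes. With the block, 0 of 7 genes were called without WT mouse 453 and 1 without WT mouse 449 or WT mouse 520, while 5 were called without NDI1 mouse 461. Without WT mouse 496, Ciita lost its call (adjusted p = 0.0553, edgeR) and H2-Aa (adjusted p = 0.0222) and H2-Eb1 (adjusted p = 0.0364) were called. Without both mice 496 and 503, 4 were called, which were H2-Aa, H2-Ab1, H2-Eb1 and Cd74, and Ciita was at 1.02 ± 0.34 (adjusted p = 0.0648, edgeR). H2-Ab1 lost its call in 7 of the 10 cases in which 1 mouse was left out, with adjusted p-values from 0.0568 to 0.197. In NDI1 BMDMs 0 of 7 genes and 0.0% of all tested genes were called with or without the block. There 0 members had an unadjusted p under 0.05, against 208 of all tested genes with the block and 78 without it.

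The genotypes were also compared directly under each treatment, where mice cannot serve as a block. Untreated and with LPS, 0 of 7 genes were called in NDI1 against WT by edgeR, as were 0.0% of all tested genes. In both cases 0 members had an unadjusted p under 0.05, against 39 of all tested genes untreated and 141 with LPS. With piericidin A, 7.8% of all tested genes and 0 of 7 members were called, with H2-DMb1 nearest at −0.53 ± 0.18 (adjusted p = 0.0579, edgeR). It was called by DESeq2, and by edgeR without NDI1 mouse 447, WT mouse 449 or WT mouse 453. With LPS and piericidin A, 12.0% of all tested genes and 0 of 7 members were called. All 7 were lower in NDI1 BMDMs, from −0.94 ± 0.56 for H2-Aa to −0.37 ± 0.27 for H2-DMa. Without mice 496 and 503, an alternative chosen after seeing the data, H2-Aa, H2-Ab1 and H2-Eb1 were called lower here, and without NDI1 mouse 503 alone H2-Aa was (adjusted p = 0.0467, edgeR).

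In the class II chains and Cd74, mice 496 and 503 differed from their group means by more than the fitted effect of either agent. Over the 4 libraries of a mouse, mouse 496 lay 1.52 above and mouse 503 lay 1.43 above its group means in H2-Aa, 1.57 and 1.45 in H2-Eb1, 1.37 and 1.23 in H2-Ab1 and 1.34 and 1.22 in Cd74, on the log2 scale. In Ciita they lay 0.32 and 0.58 above, and WT mouse 452 lay 0.58 above too. The SD within groups was 0.86 for H2-Aa and 0.89 for H2-Eb1, which exceeded that of 96.2% and 96.5% of the tested genes, and 0.28 for H2-DMb1, close to the median of all genes of 0.29. Without mice 496 and 503 the SD of H2-Aa fell to 0.28, the 49.2th percentile of the tested genes, while that of Ciita was 0.58 and at the 89.2th percentile.

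The 3 chain genes varied together over the 40 libraries, with Pearson's r of the deviations from the group means of 0.984 to 0.995 among H2-Aa, H2-Ab1 and H2-Eb1, and of 0.87 to 0.96 over the 32 libraries of the other 8 mice. Ciita followed them less, with r of 0.53 against H2-Aa in the 40 libraries and 0.45 in the 32. The libraries of a mouse share their cells, so these values are a description.

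Mice 496 and 503 lay above the other 8 mice in the untreated class II chains and Cd74. The relation of Ciita to each other member was therefore taken over the remaining 8 of the 10 mice, a choice made after seeing the data. In untreated Ciita itself these 2 mice did not stand apart, at 6.92 and 9.32 CPM against 2.92 to 10.6 CPM. The relation over all 10 mice is not given. Ciita followed H2-DMa, with Pearson's r = 0.86 (exact permutation p = 0.00372, 0.0223 after Benjamini-Hochberg adjustment over the 6 relations) and Spearman's rho = 0.83 (exact permutation p = 0.0154, adjusted 0.0923). Without the 2 mice farthest from the median of Ciita, r was 0.78 over 6 mice. With 1 of the 8 mice left out, r ran from 0.785 to 0.954 and the relation lost its call in 6 of 8 cases. The other 5 relations had r from 0.45 for H2-Ab1 to 0.74 for Cd74 and none passed after adjustment, with rho from 0.36 to 0.76 and adjusted exact permutation p-values of r from 0.0901 to 0.263.

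Outside the family, the 10 tested genes whose deviations were most like the mean deviation of the 7 members over the 40 libraries were Ltf, S100a9, Ngp, Chil3, S100a8, Lcn2, Prtn3, Ly6c2, I830127L07Rik and Itgb2l, with r from 0.97 to 0.94. Ltf, Ngp and Prtn3 encode granule proteins of neutrophils and their precursors, and S100a8 and S100a9 form calprotectin. Untreated, S100a9 was at 162 CPM in mouse 496 and 166 CPM in mouse 503, and at 5.28 to 38.9 CPM in the other 8 mice. Ltf was at 121 and 128 CPM against 3.17 to 22.4 CPM. Over the 32 libraries without these 2 mice, 7 of the 10 were still among the 10 most alike, with r from 0.76 for Lcn2 to 0.80 for S100a9. Ly6g, a defining marker of mature neutrophils, was at 0 in 28 of 40 libraries and reached 2.02 CPM at most. Untreated, it was at 0.556 CPM in mouse 496 and 0.448 CPM in mouse 503, and at 0 in the other 8 mice.

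**Figure D4:**
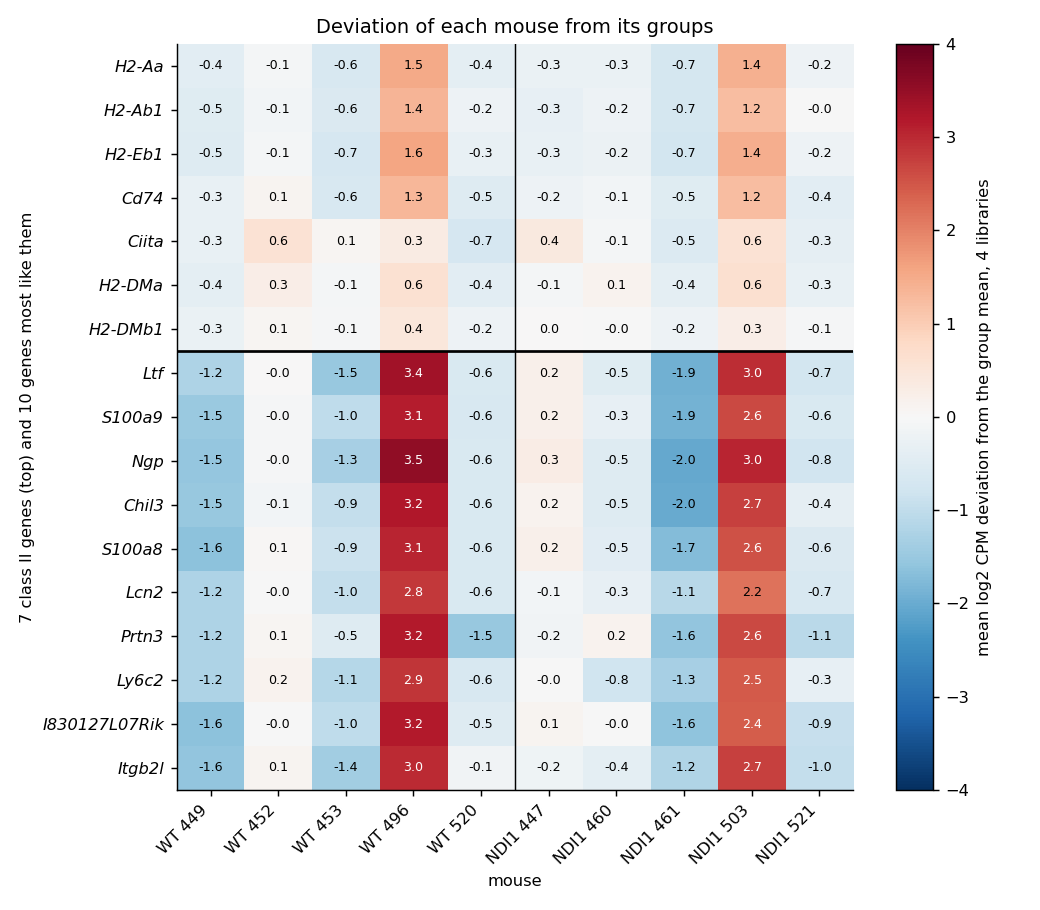
Mean deviation of each mouse (columns) from the means of its groups on the log2 CPM scale, over its 4 libraries, for the 7 class II genes (above the line) and the 10 genes most like them (below it). Mice 496 and 503 are high in both sets, at 1.52 and 1.43 for H2-Aa, while Ciita is at 0.32 and 0.58.

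Other genes of the pathway were described from lists chosen by role. Of the accessory class II molecules, H2-DMb2, H2-Oa and H2-Ob were tested out of 6 listed, and 0 were called for LPS or piericidin A in either genotype, with or without the block. Of all tested genes, 36.4% were called higher for LPS in each genotype with the block, 17.2% for piericidin A and 15.6% for piericidin A under LPS in WT, and 0.0% for either use of piericidin A in NDI1. H2-Oa and H2-Ob form H2-DO, which restrains H2-DM. Each was near 1 CPM or below in the group means of WT BMDMs, from 0.317 to 0.905 CPM, so small changes in them could not be detected at this depth.

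Among the partners of Ciita at the promoter, piericidin A under LPS lowered Kat2b most. Of 9 tested (the RFX, NF-Y and CREB factors and 2 acetyltransferases), 0 were higher and 4 were lower in LPS-treated WT BMDMs with the block, against 15.6% of all tested genes higher and 18.9% lower, so the count of 0 higher is near the background. Without the block 0 were higher and 2 lower, against 7.81% and 8.92% of all tested genes, and of these 2 Nfya lost its call without WT mouse 496 or 520 (adjusted p = 0.0772 and 0.104, edgeR). Kat2b, an acetyltransferase, was at 140 ± 17.7 CPM (SD, n = 5) with LPS and at 72.3 ± 24.8 CPM with both agents, a log2 change of −0.99 ± 0.11 (adjusted p = 3.57e-08, edgeR with the block). Nfya fell by 0.38 ± 0.09, Nfyb by 0.39 ± 0.11 and Nfyc by 0.34 ± 0.11 on the log2 scale, the calls of Nfyb and Nfyc being lost without WT mouse 496 (adjusted p = 0.0741 and 0.214, edgeR). These 3 encode the NF-Y complex that binds the Y box shown above for H2-Aa and H2-Eb1. For the difference between the genotypes, 1 of 9 was called with and without the block, which was Kat2b (0.88 ± 0.15 higher in NDI1 with the block), beside 4.7% of all tested genes called higher with the block and 0.16% without it.

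Without LPS, piericidin A lowered 4 of the 9 partners in WT BMDMs with the block, where 16.9% of all tested genes were called lower. Rfx5, the DNA-binding subunit of RFX, fell by 0.56 ± 0.17 and Rfxap by 0.46 ± 0.12, and Kat2b and Creb1 by 0.39 ± 0.11 and 0.29 ± 0.10. With 1 mouse left out, the call of Rfxap was lost without WT mouse 520 (adjusted p = 0.0732, edgeR) and that of Creb1 without WT mouse 449 (adjusted p = 0.0726) or 496 (adjusted p = 0.152). Without the block Rfx5 alone was called, against 7.05% of all tested genes, and this call was lost in 7 of 10 cases in which 1 mouse was left out (adjusted p from 0.0565 to 0.119, edgeR). LPS itself raised Kat2b, Nfyb and Rfx5 and lowered Rfxank and Rfxap in both genotypes in both models, 3 of 9 up and 2 of 9 down. These counts are close to or below the share of all tested genes, which in WT was 36.4% higher and 35.6% lower with the block and 31.5% and 31.0% without it. Kat2b was at 4.51-fold and Rfxank at 0.374-fold in WT with the block.

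Among 11 genes upstream of Ciita, those of the interferon gamma pathway and its targets moved in different directions under LPS and piericidin A. With the block 3 rose and 6 fell in WT BMDMs, beside 15.6% and 18.9% of all tested genes. Of the 6 falls, Irf2 lost its call without WT mouse 496 or 520 (adjusted p = 0.0779 and 0.0712, edgeR) and Jak1 when any of WT mice 449, 453 and 520 was left out (adjusted p from 0.0612 to 0.0738, edgeR). Irf8, a factor of the macrophage lineage, rose 2.15-fold, from 417 ± 168 CPM with LPS to 931 ± 512 CPM. Socs1, an inhibitor of JAK signalling, rose 2.14-fold, and Irf1, which acts at the inducible promoter of Ciita, rose 1.60-fold. The interferon gamma receptor chain Ifngr2 fell to 0.614-fold, Spi1, the myeloid factor PU.1, to 0.619-fold and the kinase Jak2 to 0.664-fold. Without the block 2 rose (Irf8 and Socs1) and 3 fell (Ifngr2, Spi1 and Jak2), the call of Jak2 being lost without WT mouse 453, 496 or 520 (adjusted p = 0.064, 0.108 and 0.112, edgeR). These counts stand beside 7.81% of all tested genes higher and 8.92% lower without the block.

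For the difference between the genotypes, Spi1 and Ifngr2 were higher and Irf8 and Socs1 lower in NDI1, 4 of 11 with the block and 0 without it. Of all tested genes, 4.7% were higher and 4.81% lower with the block, and 0.16% and 0.818% without it. In NDI1 BMDMs 0 of 11 were called for piericidin A in either model, as were 0.0% of all tested genes. Without LPS, Socs1 rose 2.87-fold and Irf2, Prdm1 and Ifngr1 fell in WT BMDMs with the block, beside 17.2% of all tested genes higher and 16.9% lower, and Socs1 and Irf2 were called without it, beside 7.79% and 7.05%. By edgeR, Prdm1 lost its call without WT mouse 496 (adjusted p = 0.0916) and Ifngr1 without WT mouse 453 (adjusted p = 0.0553). Without the block, Irf2 lost its call without WT mouse 496 or 520 (adjusted p = 0.119 and 0.113) and Socs1 without WT mouse 496 (adjusted p = 0.0519). LPS raised 9 of the 11 and lowered 1, Ifngr1, in both genotypes and both models. Of all tested genes, 36.4% were higher and 35.6% lower with LPS in WT with the block, 36.4% and 36.0% in NDI1 with the block, and 31.5% and 31.0% in WT without it. Socs1 was 94.1-fold and Jak2 21.8-fold higher in WT with the block.

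**Figure D5:**
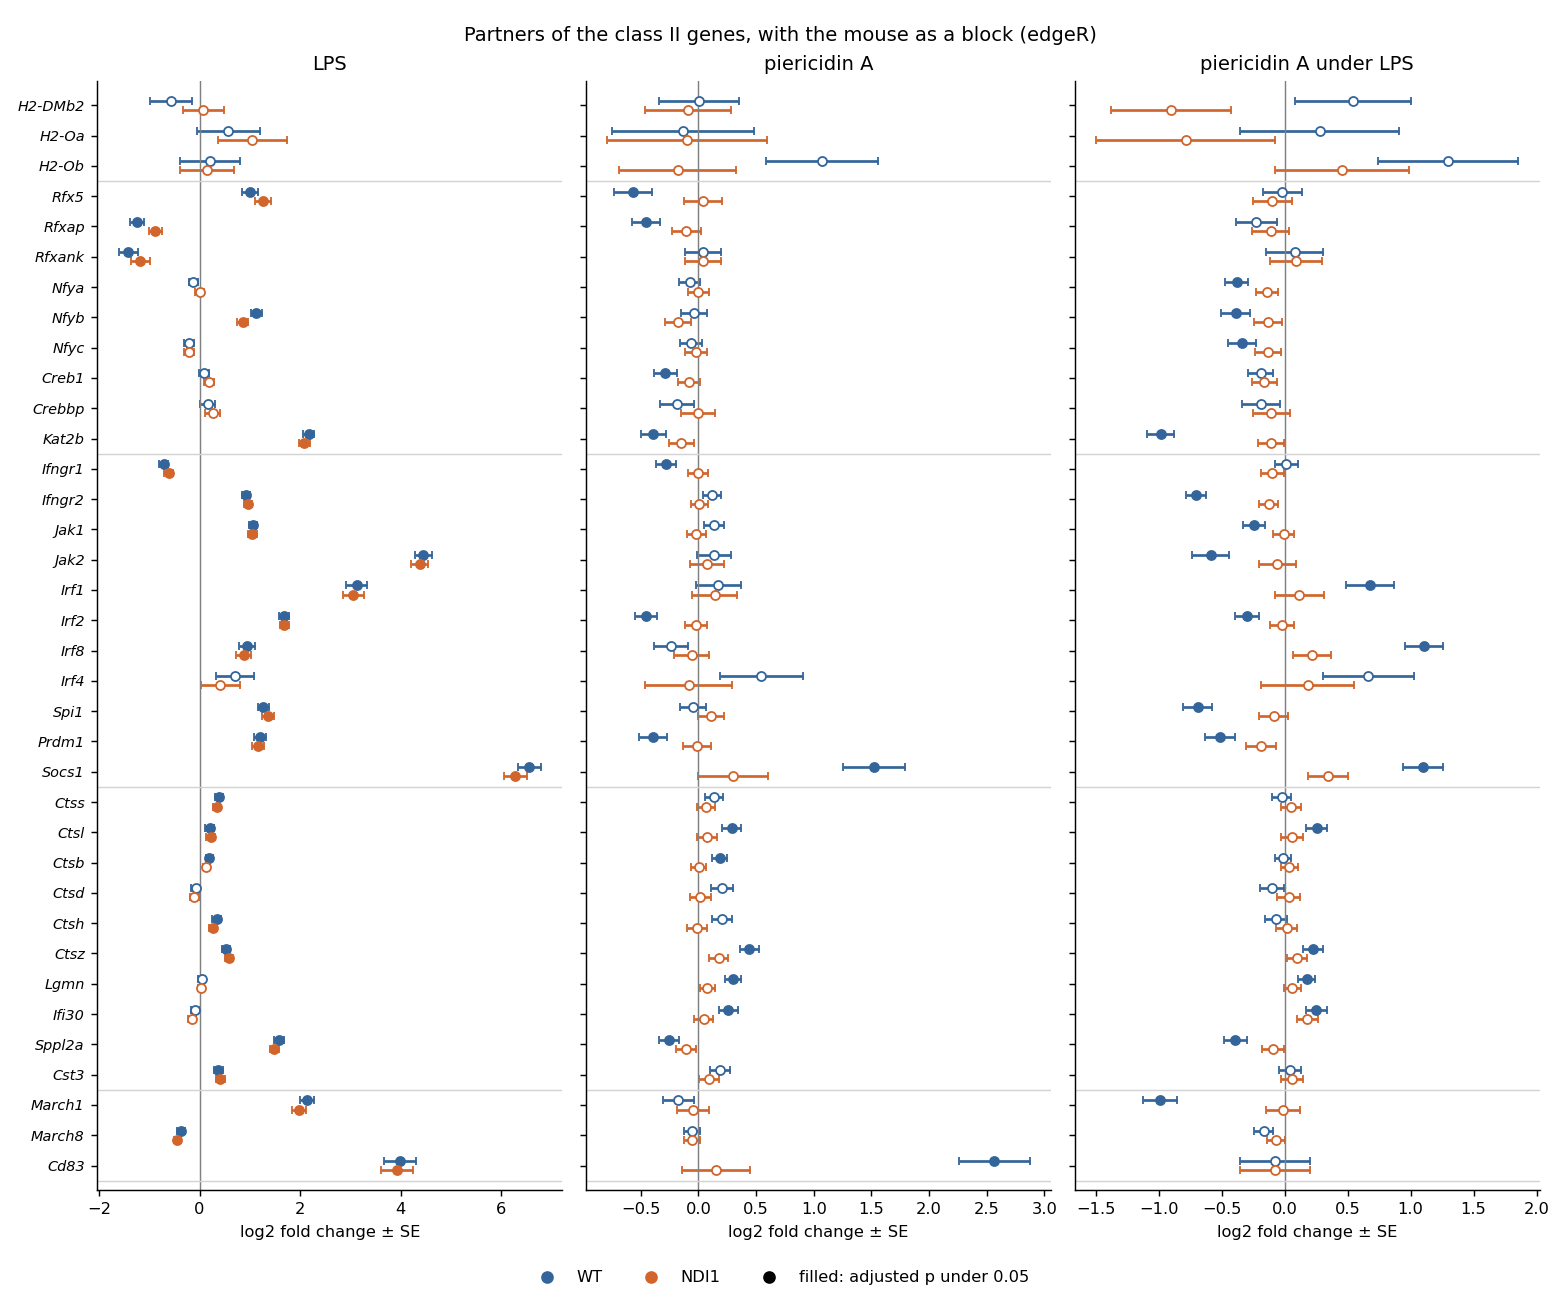
Log2 fold changes with SE (horizontal) of the tested genes of the 5 lists (vertical, from the top: accessory class II molecules, partners of Ciita, regulators upstream of Ciita, antigen processing, turnover at the surface), for LPS, piericidin A and piericidin A under LPS, from edgeR with the mouse as a block, WT in blue and NDI1 in orange, filled where the adjusted p was under 0.05. In the right panel Irf8 and Socs1 lie to the right in WT, at 1.11 and 1.10, and Kat2b and March1 to the left, both at −0.99.

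Of 10 genes for proteases that process the invariant chain and antigen and their helpers, LPS raised 7 in WT and 6 in NDI1 BMDMs with the block, and 4 in each without it, beside the 36.4% and 31.5% of all tested genes called higher in these models. Sppl2a, the protease that clears the last fragment of the invariant chain, rose 2.99-fold and Ctss, the cathepsin that trims it, 1.31-fold in WT with the block. Piericidin A under LPS raised 4 in WT with the block, by 1.13-fold for Lgmn to 1.19-fold for Ctsl and Ifi30, and lowered Sppl2a to 0.761-fold, beside 15.6% of all tested genes higher and 18.9% lower, while 0 were called without the block. Each of the 4 rises lost its call when certain mice were left out, Lgmn in 6 of 10 cases (adjusted p from 0.0506 to 0.203, edgeR), Ctsl without WT mouse 496 or 520 (0.065 and 0.0518), Ctsz without WT mouse 453 or 520 (0.148 and 0.0791) and Ifi30 without WT mouse 453 (0.117). Without LPS it raised 5 and lowered Sppl2a with the block, beside 17.2% of all tested genes higher and 16.9% lower. Without the block it raised Ctsz alone, beside 7.79% of all tested genes higher (1.36-fold, adjusted p = 0.0284, edgeR), a call lost without any single one of the 5 WT mice (adjusted p from 0.0527 to 0.125). With the block and without WT mouse 496, Sppl2a, Ctsb, Ctsl and Ifi30 lost their calls for piericidin A alone, with adjusted p-values by edgeR from 0.0729 to 0.154. For the genotype difference 0 of 10 were called in either model, beside 4.7% of all tested genes higher and 4.81% lower under LPS with the block.

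Of 3 genes that set the turnover of class II molecules at the surface, March1, a ubiquitin ligase that sends them for degradation, fell with piericidin A under LPS in WT BMDMs. Its level was 256 ± 120 CPM (SD, n = 5) with LPS and 126 ± 50.9 CPM with both agents, a log2 change of −0.99 ± 0.14 with the block (adjusted p = 1.95e-06, edgeR) and −1.02 ± 0.34 without it (adjusted p = 0.0355, edgeR), a call lost without WT mouse 449, 496 or 520 or NDI1 mouse 461 (adjusted p from 0.0511 to 0.199). The change was higher in NDI1 by 0.98 ± 0.19 with the block (adjusted p = 0.00148, edgeR), a difference not called without it. Cd83, which opposes March1, rose 5.92-fold with piericidin A alone in WT with the block, from 34.5 ± 10.7 to 209 ± 146 CPM, and was not called under LPS (0.949-fold). LPS raised Cd83 15.9-fold and March1 4.38-fold and lowered March8 to 0.774-fold in WT.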

How the data were processed

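RNA-seq was analysed from 40 libraries of mouse BMDMs, 5 mice in each of 8 groups. The values are whole-number read counts per gene, which the authors deposited after trimming with Trimmomatic, alignment to mm10 with STAR and counting over exons with HTSeq from polyA libraries. The annotation release, the strand setting and the versions of STAR and HTSeq are not given in the sources used here. Of 43430 genes, 42462 matched a symbol. The deposited table also held 1 column of undetermined reads, which was not used. Totals were 6950748 to 13552070 counts (median 10361773.5), and the limit of 3 counts that a count of 0 allows covers counting error only.

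Gene-wise tests used edgeR 4.0.16 in R 4.3.3 (quasi-likelihood, TMM factors, filterByExpr over the groups, 11853 genes, all 40 libraries, 1 mean per group). A gene was called at a Benjamini-Hochberg adjusted p under 0.05 over all tested genes. SE was derived from the fold change and its F statistic, and 95% intervals are the change plus or minus 1.96 SE. Group comparisons within mice were fitted also with the mouse as a block, since the labels give the 4 libraries of a mouse the same number. Deviations from the group means correlated with a mean r of 0.453 over 60 pairs of libraries of the same mouse (0.0995 to 0.769), and of −0.107 over 240 pairs of different mice. Replicate libraries differed by 9.35 to 77.3 times the sampling noise (chi-square per degree of freedom, 80 pairs), so none was a duplicate.

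Log2 CPM used a prior count of 2. Changes within mice were compared by two-sided exact permutation tests (scipy 1.17.1). Alternatives were DESeq2 1.42.0, RLE factors, other filters (none, or at least 10 counts in every library), fits on the compared libraries alone, the block and leaving out each mouse. The fits were checked on simulated counts. These held no differences between mice, so the check does not cover what the block removes. Members and lists were chosen with earlier results of these data known. From each list, at most the 3 called genes of largest change in each direction were named per comparison, and Creb1, Nfyc, Lgmn, Ctsb, Ifi30, Irf2 and Jak1, where others of their list moved more, and the uncalled H2-Oa and H2-Ob were named after their values were seen. A listed gene and a motif are not reported here.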

Additional observations from a re-analysis of the deposited data

Results flagged for a closer look

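In 14 of the 56 sets of 5 libraries (7 genes in 8 groups), 1 library stood apart by Dixon's criterion, a gap to the nearest library over the whole range, on the log2 CPM scale, above 0.71, which chance passes in about 1 of 20 sets. Each time this was the highest library and came from WT mouse 496 or NDI1 mouse 503. In mouse 496 the ratios were 0.716 with piericidin A and 0.784 with both agents for H2-Aa, 0.711 with LPS, 0.717 with piericidin A and 0.839 with both agents for H2-Ab1, 0.721 with piericidin A and 0.768 with both agents for H2-Eb1, and 0.773 with piericidin A for H2-DMb1. In mouse 503 they were 0.801 with LPS and 0.876 with both agents for H2-Aa, 0.842 with LPS and 0.75 with both agents for H2-Eb1, and 0.77 untreated and 0.716 with both agents for Cd74. Neutrophil and precursor markers summed to 436 and 416 CPM in untreated libraries of these mice, against 11.9 to 88.1 CPM in the other 8, and their part was not tested.

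Under LPS, the genotypes differed in the response to piericidin A by a test of that difference itself, as NDI1 minus WT on the log2 scale, in the edgeR model with the mouse as a block for H2-Aa (−0.74), H2-Ab1 (−0.79), H2-Eb1 (−0.63) and Cd74 (−0.54). Over the changes within mice, the exact permutation test passed 0.05 before adjustment over all genes for H2-Aa (−0.73), H2-Ab1 (−0.80), H2-Eb1 (−0.63), Cd74 (−0.54), Ciita (−0.65), H2-DMa (−0.36) and H2-DMb1 (−0.41). For piericidin A alone it did so for H2-Aa (−0.35). None of these exact permutation values passed after adjustment over all tested genes.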

How the results depend on the processing

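Of 405 counts of called members under the alternatives, 372 stayed within 1.5 times the reported count, and of 3581 values of single genes 3391 kept direction and side of the threshold, 126 lost and 64 gained a call, and 0 reversed. With the replicate block, which removes the difference between mice, the members called rose from 1 to 7 for LPS in WT, from 1 to 5 for LPS in NDI1, from 1 to 5 for piericidin A in WT, from 0 to 7 for piericidin A under LPS in WT, from 0 to 4 for its genotype difference and from 0 to 3 for the changed LPS response in WT. Calls over all 11853 tested genes rose too. In the same order they went from 7411 to 8530, from 7434 to 8578 and from 1759 to 4049. For the last 3 they went from 1983 to 4090, from 116 to 1127 and from 563 to 2066. The pairing changed no other count of members called. Without mice 496 and 503 (chosen after seeing the data), the counts without the block were 5, 5, 0 and 3 for the first 4 of these and 3 for NDI1 against WT with both agents, and with the block 1 for piericidin A in WT and 2 for the genotype difference under LPS. The shares of all tested genes in these fits are not given, so the counts have no background beside them. Fitting only the compared libraries left 0 calls for piericidin A in WT, and DESeq2 gave 1 for NDI1 against WT with piericidin A. With the block, RLE factors, at least 10 counts in every library and DESeq2 each gave 5 calls for the changed LPS response. The cause of these shifts was not tested.

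With 1 mouse left out, the counts without the block were 1 to 2 for LPS in NDI1, 0 to 1 for piericidin A in WT, and 0 to 1 for NDI1 against WT with piericidin A and with both agents. Of all tested genes, 6761 to 7583, 788 to 1800, 587 to 1115 and 746 to 1792 were then called, in the same order. With the block the counts of members were 1 to 5 for piericidin A in WT, 0 to 1 for the genotype difference in its effect, 2 to 4 for that difference under LPS and 0 to 5 for the changed LPS response. The calls over all tested genes were 2822 to 4175, 628 to 1310, 457 to 1628 and 1061 to 2129 in that order. The correlation of Ciita with H2-DMa ran from 0.785 to 0.954 and lost its call in 6 of 8 cases. For Ciita, with 24 to 171 counts per library, counting alone gives an SD of 0.11 to 0.294 on the log2 scale, below its SD of 0.573 within groups.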
